A study of Arabidopsis thaliana with 12 samples.

Results

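UDP-glycosyltransferases (UGTs) move a sugar from a UDP-sugar onto small molecules such as hormones, flavonols, benzoates, hydroxycinnamates and lignin precursors. The glycoside is usually more soluble than the free compound, often inactive, and can be stored in the vacuole or carried to the cell wall. In Arabidopsis the family is large, and a name such as UGT74E2 gives the sequence group by its number and the subgroup by its letter. The genes described here are all those whose symbol in the array annotation, or in the RefSeq gene table for the same locus, has that form, except UGT74B1, UGT75C1 and UGT79B1. They number 57 of 24716 named genes. A locus for which the tables hold a UGT name only as a synonym was not taken.

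The study compared Arabidopsis seedlings transformed with SvGRP, which encodes an RNA-binding protein rich in glycine from S. virginics, as the labels spell it, with wild-type Col-0, on medium with 150 mM or 0 mM NaCl. Seedlings germinated on half-strength medium were moved at 5 days of age to plates with or without the salt and were harvested whole after 24 hours, at 6 days. The 4 groups were SvGRP on 150 mM NaCl, SvGRP on 0 mM NaCl, wild type on 150 mM NaCl and wild type on 0 mM NaCl, with 3 one-colour Agilent arrays each. The labels name neither the promoter of the transgene nor the number of lines, and do not say whether replicates were grown apart, so p-values measure only how far these samples spread, and that spread may be technical.

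Levels are given as log2 of a probe's signal over the 75th percentile of its array, so 0 is the 75th percentile and each unit is a doubling. Levels of different genes are not set against each other. A member counted as changed where limma's moderated test, fitted over all 12 arrays and Benjamini-Hochberg adjusted over 26794 genes and unnamed probes, gave an adjusted p under 0.05. Of the 57 members, 55 had a named probe and 50 had one above the 20th percentile of its array on all 3 arrays of at least 1 group. UGT87A2 and UGT76B1 had no named probe, and UGT84B1, UGT84B2, UGT73C2, UGT71B5 and UGT78D3 were too dim to test. Since whole seedlings were used, fewer cells of a type and less RNA per cell cannot be told apart.

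The arrays lay on 3 slides of 4, none with both genotypes on the same medium. Salt could be compared within a slide, on slide 3 for SvGRP and on slide 1 for wild type, whereas SvGRP could be set against wild type on one medium only between slides. A second fit with slide as a block is called slide-blocked below. Its wild-type salt value sets replicate 1 on 150 mM alone against the 0 mM arrays of slide 1. In SvGRP it sets the 150 mM arrays of slide 3 against replicate 3 on 0 mM alone. Its values for SvGRP against wild type join these to SvGRP on 0 mM minus wild type on 150 mM on slide 2. A call or direction kept in that fit is therefore not separate replication. Arrays within a group correlated at 0.990 to 0.997 over the probes. Replicate 1 of SvGRP on 150 mM stood apart on the first principal component over all features (71.0, where the other two had 95.3 and 99.4). Among the members that rose with salt in SvGRP it had the lowest value of its group in 14 of 20. Among those that fell it had the highest in 8 of 15, and replicate 3 had the highest in 7. Markers of both shoot and root were detected. The summed level of 5 shoot markers was 256 to 280 times the 75th percentile in SvGRP on 150 mM and 302 to 319 in SvGRP on 0 mM, and 261 to 274 in wild type on 150 mM and 343 to 400 in wild type on 0 mM. The 5 root markers summed to 47.0 to 54.8 in SvGRP on 150 mM, 71.9 to 76.9 in SvGRP on 0 mM, 51.2 to 54.2 in wild type on 150 mM and 75.2 to 81.7 in wild type on 0 mM. That sum is nearly all PYK10, the brightest of the 5. The mean log2 level of the 5 was -1.29 to -0.51 in SvGRP on 150 mM and -0.02 to 0.35 in SvGRP on 0 mM, and 0.14 to 0.34 in wild type on 150 mM and -0.13 to 0.29 in wild type on 0 mM. The root hair markers SHV2 and EXPA7 fell with salt in SvGRP, by 2.23 and 1.70 on the log2 scale (limma adjusted p = 0.00041 and 0.005), and measured 0.65 and 0.92 in wild type (limma adjusted p = 0.15 and 0.081). The 3 seed markers tested summed to 0.074 to 0.098 in SvGRP on 150 mM and 0.037 to 0.046 in SvGRP on 0 mM, and to 0.026 to 0.034 in wild type on 150 mM and 0.011 to 0.028 in wild type on 0 mM. One of them, OLEO1, rose with salt in both genotypes (2.05 in SvGRP and 2.75 in wild type). It was below the 20th percentile on all arrays of wild type on 0 mM, so the size of its wild-type rise is uncertain. CRU3, another of the seed markers, was above that percentile on only 7 of the 12 arrays. The part of these markers in the salt response of the UGT members was not tested, and TIP2;3, SESA1 and SESA4 were too dim to test.

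**Figure D1:**
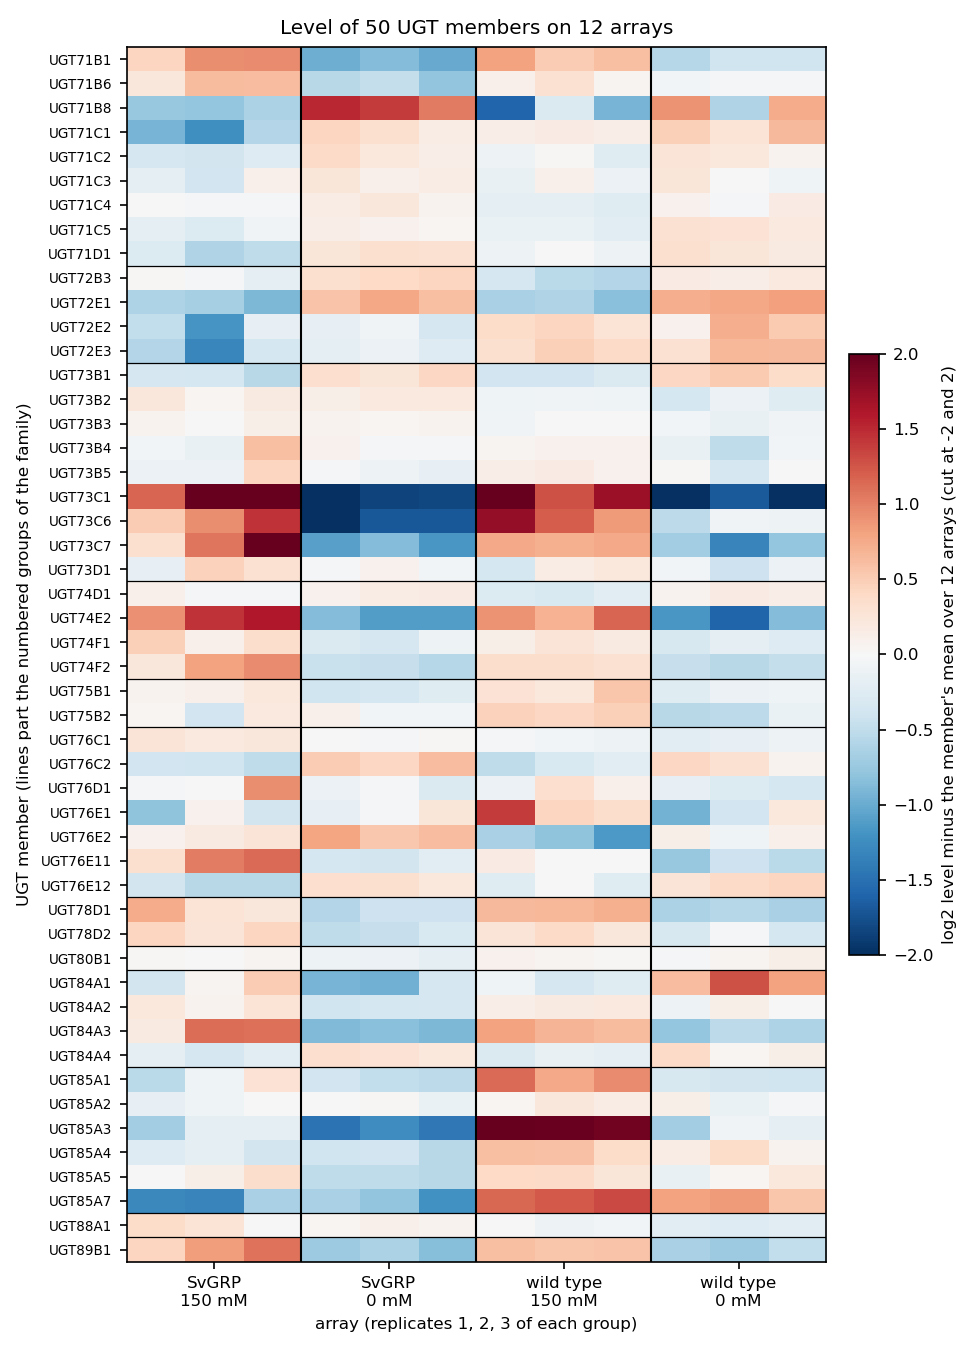
Level of the 50 tested UGT members (rows, in order of name) on the 12 arrays (columns, 3 replicates in each of 4 groups), as log2 level minus the member's own mean over the 12 arrays, with colours cut at -2 and 2. UGT73C1, UGT74E2, UGT73C7 and UGT89B1 are higher in both groups on 150 mM than in both groups on 0 mM, UGT72E1 is lower in both, and UGT85A7 differs between SvGRP and wild type at both NaCl levels.

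Salt raised and lowered members of the family in both genotypes. In SvGRP 35 of 50 members passed the test, or 70.0%, against 68.8% of all features; 20 rose and 15 fell, where 31.0% of all features rose and 37.8% fell. In wild type 34 passed, or 68.0%, against 63.2% of all features; 20 rose and 14 fell, where 33.1% of all features rose and 30.2% fell. At 2-fold or more, 11 of 50 members rose and 3 fell in each genotype. Of all features, 9.14% rose and 10.9% fell at that size in SvGRP, and 8.67% rose and 6.2% fell in wild type. The median log2 fold change of the members was 0.15 in SvGRP, where that of all features was -0.07, and 0.19 in wild type, where that of all features was 0.04. In the slide-blocked fit 30 of the 35 calls in SvGRP held, with 54.1% of all features called, and 27 of the 34 in wild type, with 45.7% called, and every called member kept its direction. With E1A spike-in probes as the scale, the split became 25 higher and 7 lower in SvGRP and 32 higher and 4 lower in wild type. That scaling put the median of all features at 0.16 in SvGRP and 0.46 in wild type, so the directions below are relative to the bulk of genes on the array.

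The 2 salt comparisons share no array. Together, 15 members rose in both genotypes, 12 fell in both, and UGT84A1 rose in SvGRP and fell in wild type. The 12 include UGT76E12, whose probes disagree in direction, and without it 11 fell in both. A further 7 passed the test in SvGRP alone, 6 in wild type alone and 9 in neither. Each of these calls is that of the member's brightest probe. Of the 15 members with over 1 probe tested, all probes gave the same call in 10 with salt in SvGRP and in 8 in wild type. UGT88A1, among the 9, had 4 probes: the brightest changed by 0.14 in SvGRP and 0.18 in wild type and did not pass, while another rose by 3.33 and 2.78 (limma adjusted p over all probes 7.42e-07 and 3.4e-06), a further one passed at 0.16 and 0.20, and the last measured -0.02 and 0.03. Across the 50 members the 2 log2 fold changes had a Pearson r of 0.845 and a Spearman rho of 0.809, given as a description, since the members are not independent replicates.

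**Figure D2:**
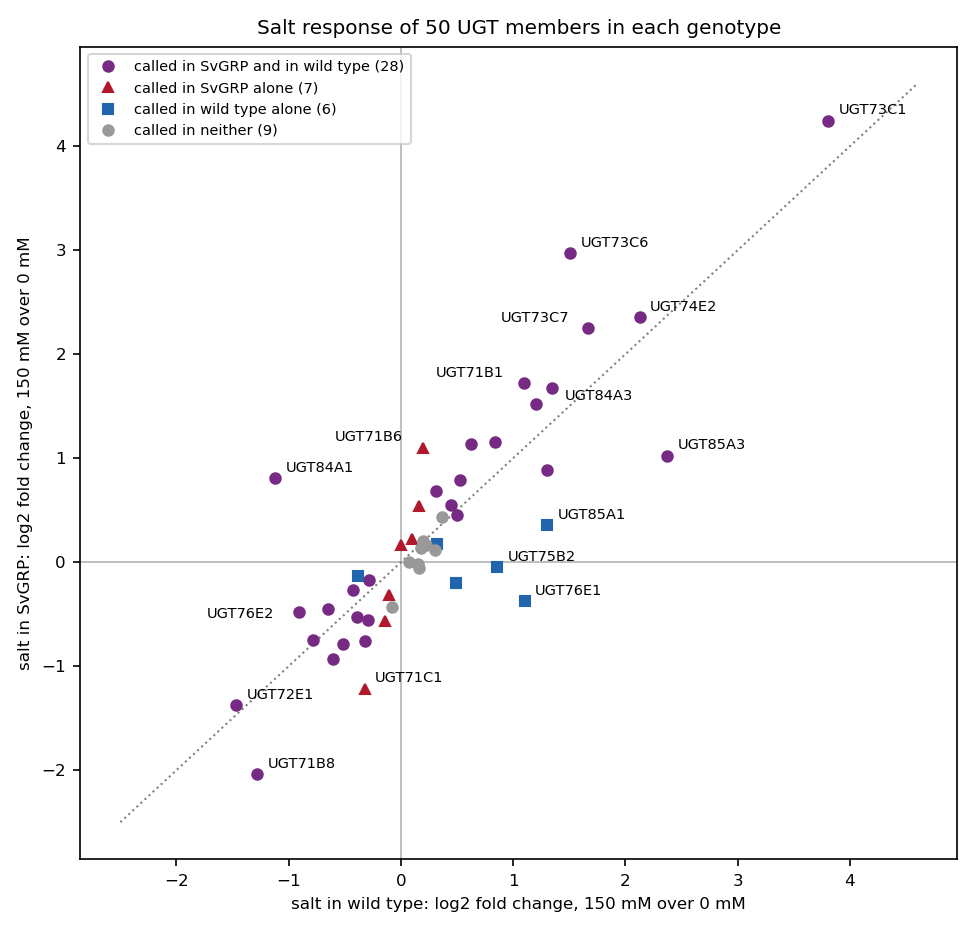
Log2 fold change of each of the 50 members with salt (150 mM over 0 mM) in SvGRP (vertical) against that in wild type (horizontal), with the dotted line marking equal change. The 28 members that passed the test in both genotypes lie mostly near the line; UGT84A1 is above and to the left of it (0.81 in SvGRP, -1.12 in wild type) and UGT85A3 below it (1.03 and 2.37).

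Among UGTs that act on hormones or related compounds, 16 were tested. With salt 7 of them rose and 5 fell in SvGRP, and 8 rose and 6 fell in wild type. Thus 12 of the 16 were called in SvGRP, against 68.8% of all features, and 14 in wild type, against 63.2%. The members that fell include UGT76E12 in both genotypes and UGT74D1 in wild type, each by its brightest probe and with another probe that rose. UGT73C1, which glucosylates cytokinins in vitro and also detoxifies trinitrotoluene, had the largest rise of any member in both genotypes. Its log2 level was -3.44, -1.76 and -1.61 on the SvGRP arrays with 150 mM and -6.69, -6.45 and -6.41 on those with 0 mM, and -2.46, -3.31 and -2.89 on the wild-type arrays with 150 mM and -7.07, -6.27 and -6.75 on those with 0 mM. The groups did not overlap in either genotype. The 0 mM levels lay not far above the 20th percentile of their arrays, so the size of these rises is uncertain. The log2 fold change was 4.25 ± 0.44 (SE, limma adjusted p = 1.7e-05) in SvGRP and 3.81 ± 0.44 (limma adjusted p = 5.2e-05) in wild type. UGT74E2, which glucosylates the auxin indole-3-butyric acid and is known as a gene induced by hydrogen peroxide, also rose in both. Its level was 3.14, 3.67 and 3.82 in SvGRP on 150 mM and 1.35, 1.09 and 1.1 in SvGRP on 0 mM, and 3.12, 2.91 and 3.39 in wild type on 150 mM and 1.06, 0.61 and 1.35 in wild type on 0 mM. This made a log2 rise of 2.36 ± 0.22 in SvGRP (limma adjusted p = 9.1e-06) and 2.13 ± 0.22 in wild type (limma adjusted p = 2.7e-05). UGT73C6, which acts on brassinosteroids and on flavonols, was below the 20th percentile on all 3 arrays of SvGRP on 0 mM. It was at least 5.04-fold higher in SvGRP on 150 mM (limma adjusted p = 2.9e-05), and in wild type its log2 rise was 1.51 ± 0.33 (limma adjusted p = 0.0028).

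The cytokinin and abscisic acid enzymes went both ways. UGT76C2, which conjugates cytokinins at a ring nitrogen, fell in both genotypes: it averaged -0.41 ± 0.07 in SvGRP on 150 mM and 0.52 ± 0.10 on 0 mM (SD, n = 3 arrays here and below), and -0.34 ± 0.14 in wild type on 150 mM and 0.27 ± 0.17 on 0 mM. The wild-type call (log2 fold change -0.61 ± 0.10, limma adjusted p = 0.00051) was lost with E1A scaling (-0.18, adjusted p = 0.3), and that in SvGRP (-0.94 ± 0.10, adjusted p = 2.3e-05) was not. Its neighbour UGT76C1, with the same activity, changed by 0.22 in SvGRP, where it passed limma's test (adjusted p = 0.0015), and by 0.10 in wild type, where it did not (adjusted p = 0.077). UGT85A1, which glucosylates zeatin at its hydroxyl group, averaged -0.55 ± 0.42 in SvGRP on 150 mM and -0.91 ± 0.07 on 0 mM, and 0.50 ± 0.18 in wild type on 150 mM and -0.80 ± 0.04 on 0 mM. It rose in wild type (log2 fold change 1.30 ± 0.17, limma adjusted p = 0.00013). Its value of 0.35 in SvGRP missed the threshold with all arrays (limma adjusted p = 0.096) and passed it at 0.57 without replicate 1 of SvGRP on 150 mM (limma adjusted p = 0.0033). UGT71B6, which conjugates abscisic acid, rose in SvGRP (log2 fold change 1.1 ± 0.12, limma adjusted p = 2.4e-05) and measured 0.19 ± 0.12 in wild type (limma adjusted p = 0.18). The related UGT71B8 and UGT71C5, also reported to act on abscisic acid, fell in both. UGT71B8 lay at -6.97, -7.00 and -6.86 in SvGRP on 150 mM, -4.72, -4.81 and -5.18 in SvGRP on 0 mM, -7.81, -6.50 and -7.16 in wild type on 150 mM and -5.33, -6.82 and -5.48 in wild type on 0 mM, close to the dim limit, and its wild-type groups overlapped. Its wild-type fall of 1.28 on the log2 scale lost its call without any of 3 arrays, namely replicates 1 and 3 on 0 mM and replicate 1 on 150 mM (limma adjusted p up to 0.069), and with E1A scaling (log2 fold change -0.85, adjusted p = 0.094). UGT71C5 changed by -0.27 in SvGRP and -0.43 in wild type, values that E1A scaling brought to -0.04 and -0.00, with both calls lost.

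Of the UGT76E genes, of which UGT76E1 and UGT76E2 are known to glucosylate 12-hydroxyjasmonate, UGT76E2 fell and UGT76E11 rose. UGT76E2 averaged -1.18 ± 0.09 in SvGRP on 150 mM and -0.70 ± 0.13 on 0 mM, and -2.22 ± 0.26 in wild type on 150 mM and -1.31 ± 0.11 on 0 mM. Its log2 fold change was -0.48 ± 0.12 in SvGRP (limma adjusted p = 0.006; with E1A scaling -0.25, adjusted p = 0.22) and -0.91 ± 0.12 in wild type (limma adjusted p = 0.00014). UGT76E11 averaged -0.52 ± 0.45 in SvGRP on 150 mM and -1.66 ± 0.09 on 0 mM, and -1.29 ± 0.09 in wild type on 150 mM and -1.92 ± 0.18 on 0 mM, and its groups did not overlap in either genotype. The wild-type call (log2 fold change 0.63 ± 0.19, limma adjusted p = 0.014) was lost without replicate 1 of wild type on 0 mM (adjusted p = 0.053) and in the slide-blocked fit (0.74, adjusted p = 0.066). UGT76E1, a dim gene, measured -0.37 ± 0.36 in SvGRP (limma adjusted p = 0.37) and 1.1 ± 0.36 in wild type (limma adjusted p = 0.021). The wild-type call was lost with quantile normalization (0.75, adjusted p = 0.11) and without replicate 1 of either wild-type group (adjusted p up to 0.079). UGT76E12 could not be given a direction, because its 2 probes moved in opposite ways. Its brighter probe, which stands for it in the counts, was named by gene symbol alone, and the other by RefSeq accession. Which of them measures the gene was not tested. The brighter changed by -0.79 in SvGRP and -0.51 in wild type, and the other by 4.09 and 3.64 (limma adjusted p = 0.00503 and 0.0105), so that the mean over both probes rose by 1.65 and 1.56.

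Auxin and ester-forming members made smaller changes. UGT74D1, an auxin glucosyltransferase, had 3 probes that disagreed as well: the brightest changed by -0.13 in SvGRP and -0.38 in wild type, while another changed by 0.81 and 0.76. The probe that rose was named by gene symbol alone, and the brightest and the third by accession. The third changed by -0.21 in SvGRP and -0.21 in wild type. E1A scaling turned the wild-type value of the brightest probe to 0.04. UGT75B1, which forms the glucose ester of p-aminobenzoate, rose by 0.46 ± 0.09 on the log2 scale in SvGRP (limma adjusted p = 0.0013) and by 0.50 ± 0.09 in wild type (limma adjusted p = 0.00089). Its relative UGT75B2 averaged -4.87 ± 0.30 in SvGRP on 150 mM and -4.82 ± 0.09 on 0 mM, a difference within the spread (limma adjusted p = 0.78), and -4.37 ± 0.03 in wild type on 150 mM and -5.23 ± 0.24 on 0 mM, where it rose (limma adjusted p = 0.00067).

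Of 4 tested UGTs for salicylate and related benzoates, 2 rose in both genotypes and 1 more passed in SvGRP alone, where it fell. Thus 3 of the 4 were called in SvGRP, against 68.8% of all features, and 2 in wild type, against 63.2%. UGT74F2, which forms the salicylate glucose ester and a glucoside, had levels of 1.96, 2.53 and 2.68 in SvGRP on 150 mM and 1.29, 1.26 and 1.15 in SvGRP on 0 mM, and of 2.08, 2.08 and 2.04 in wild type on 150 mM and 1.26, 1.17 and 1.25 in wild type on 0 mM. UGT74F1, which forms salicylate glucoside, had -1.43, -1.80 and -1.54 and -2.18, -2.24 and -2.01 in the SvGRP groups on 150 mM and 0 mM, and -1.79, -1.64 and -1.72 and -2.22, -2.09 and -2.16 in the wild-type groups on 150 mM and 0 mM. None of these pairs of groups overlapped. The log2 rise of UGT74F2 was 1.15 ± 0.15 in SvGRP (limma adjusted p = 7.9e-05) and 0.84 ± 0.15 in wild type (limma adjusted p = 0.00082). That of UGT74F1 was 0.55 ± 0.10 in SvGRP (limma adjusted p = 0.00062) and 0.44 ± 0.10 in wild type (limma adjusted p = 0.0029; slide-blocked 0.37, adjusted p = 0.053). UGT76D1, which acts on dihydroxybenzoates, measured 0.44 ± 0.23 in SvGRP and 0.37 ± 0.23 in wild type and passed in neither with all arrays; without replicate 1 of SvGRP on 150 mM its SvGRP value was 0.61 (adjusted p = 0.049), and without replicate 3 of that group its wild-type value passed (adjusted p = 0.02). UGT71C3, which acts on methyl salicylate, measured -0.32 ± 0.13 in SvGRP, just past the threshold (limma adjusted p = 0.049); leaving out any 1 of 9 arrays ended that call, and without replicate 2 of SvGRP on 150 mM the value was -0.21. In the synthesis of salicylate and N-hydroxypipecolate 7 genes were tested, of which 4 rose and 2 fell in each genotype. This was 85.7% called, against the same shares of all features. CBP60G, a transcription factor of that pathway, rose by 3.90 on the log2 scale in SvGRP and 2.72 in wild type, and FMO1, the N-hydroxylase, by 2.98 and 3.08. EDS16, the isochorismate synthase, changed by -0.49 and -0.54, and ALD1, the aminotransferase for pipecolate, by -1.05 and -0.82.

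The 3 tested flavonoid UGTs, UGT78D1, UGT78D2 and UGT73C6, each rose in both genotypes, where 31.0% of all features rose in SvGRP and 33.1% in wild type. UGT78D1 adds rhamnose, and UGT78D2 glucose, to the flavonol 3-hydroxyl group. UGT78D1 had levels of 1.67, 1.21 and 1.15 in SvGRP on 150 mM and 0.34, 0.51 and 0.52 in SvGRP on 0 mM, and of 1.58, 1.60 and 1.65 in wild type on 150 mM and 0.29, 0.35 and 0.29 in wild type on 0 mM, with no overlap. It rose by 0.89 ± 0.12 on the log2 scale in SvGRP (limma adjusted p = 0.0001) and by 1.30 ± 0.12 in wild type (limma adjusted p = 1.4e-05). UGT78D2 averaged 0.93 ± 0.10 in SvGRP on 150 mM and 0.13 ± 0.10 on 0 mM, and 0.85 ± 0.08 in wild type on 150 mM and 0.32 ± 0.17 on 0 mM, and rose in both (limma adjusted p = 4.5e-05 and 0.00085). Of 11 tested genes that make flavonoids or control their synthesis, 8 rose and 1 fell in SvGRP and 6 rose and 1 fell in wild type. The called share was 81.8% in SvGRP and 63.6% in wild type, against 68.8% and 63.2% of all features. DFR, the dihydroflavonol reductase, rose by 4.14 in SvGRP and 5.79 in wild type, and LDOX, the enzyme after it, by 3.65 and 5.33. The factor MYB12 changed by -0.61 and -0.85.

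Phenylpropanoid UGTs went both ways. UGT84A1 to UGT84A4 form glucose esters of hydroxycinnamates, UGT84A2 that of sinapate, and UGT72E1 to UGT72E3 glucosylate coniferyl and sinapyl compounds on the way to lignin. Of the 7, 3 rose and 3 fell in SvGRP, and 1 rose and 3 fell in wild type. That is 85.7% called in SvGRP and 57.1% in wild type, against 68.8% and 63.2% of all features. UGT72E1, which prefers the aldehydes, had levels of 0.62, 0.57 and 0.34 in SvGRP on 150 mM and 1.81, 2.01 and 1.83 in SvGRP on 0 mM, and of 0.59, 0.63 and 0.40 in wild type on 150 mM and 1.96, 2.0 and 2.05 in wild type on 0 mM. It fell by 1.37 ± 0.09 on the log2 scale in SvGRP (limma adjusted p = 1.3e-06) and by 1.47 ± 0.09 in wild type (limma adjusted p = 2.0e-06), and the groups did not overlap in either. The alcohol-directed UGT72E2 and UGT72E3 measured -0.43 and -0.56 in SvGRP, and -0.08 and -0.15 in wild type. Only UGT72E3 in SvGRP passed (limma adjusted p = 0.033); that call was lost without any of 4 SvGRP arrays, which are the 3 on 0 mM and replicate 2 on 150 mM (adjusted p up to 0.084), and without the last of these the value was -0.28. UGT84A3 rose by 1.68 ± 0.21 in SvGRP (limma adjusted p = 5.9e-05) and by 1.35 ± 0.21 in wild type (limma adjusted p = 0.00033). The neighbouring UGT84A4 changed by -0.53 and -0.39, with both calls lost under E1A scaling, which turned the wild-type value to 0.04. UGT84A1 and UGT84A2 are taken up with the interaction below. Of 13 tested genes of phenylpropanoid and monolignol synthesis, 5 rose and 2 fell in SvGRP and 6 rose and 2 fell in wild type. The called share was 53.8% in SvGRP and 61.5% in wild type, below the same shares of all features. The alcohol dehydrogenase gene CAD5 changed by 1.15 in SvGRP and 0.83 in wild type, and its relative ATCAD4 by -1.08 and -0.74.

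**Figure D3:**
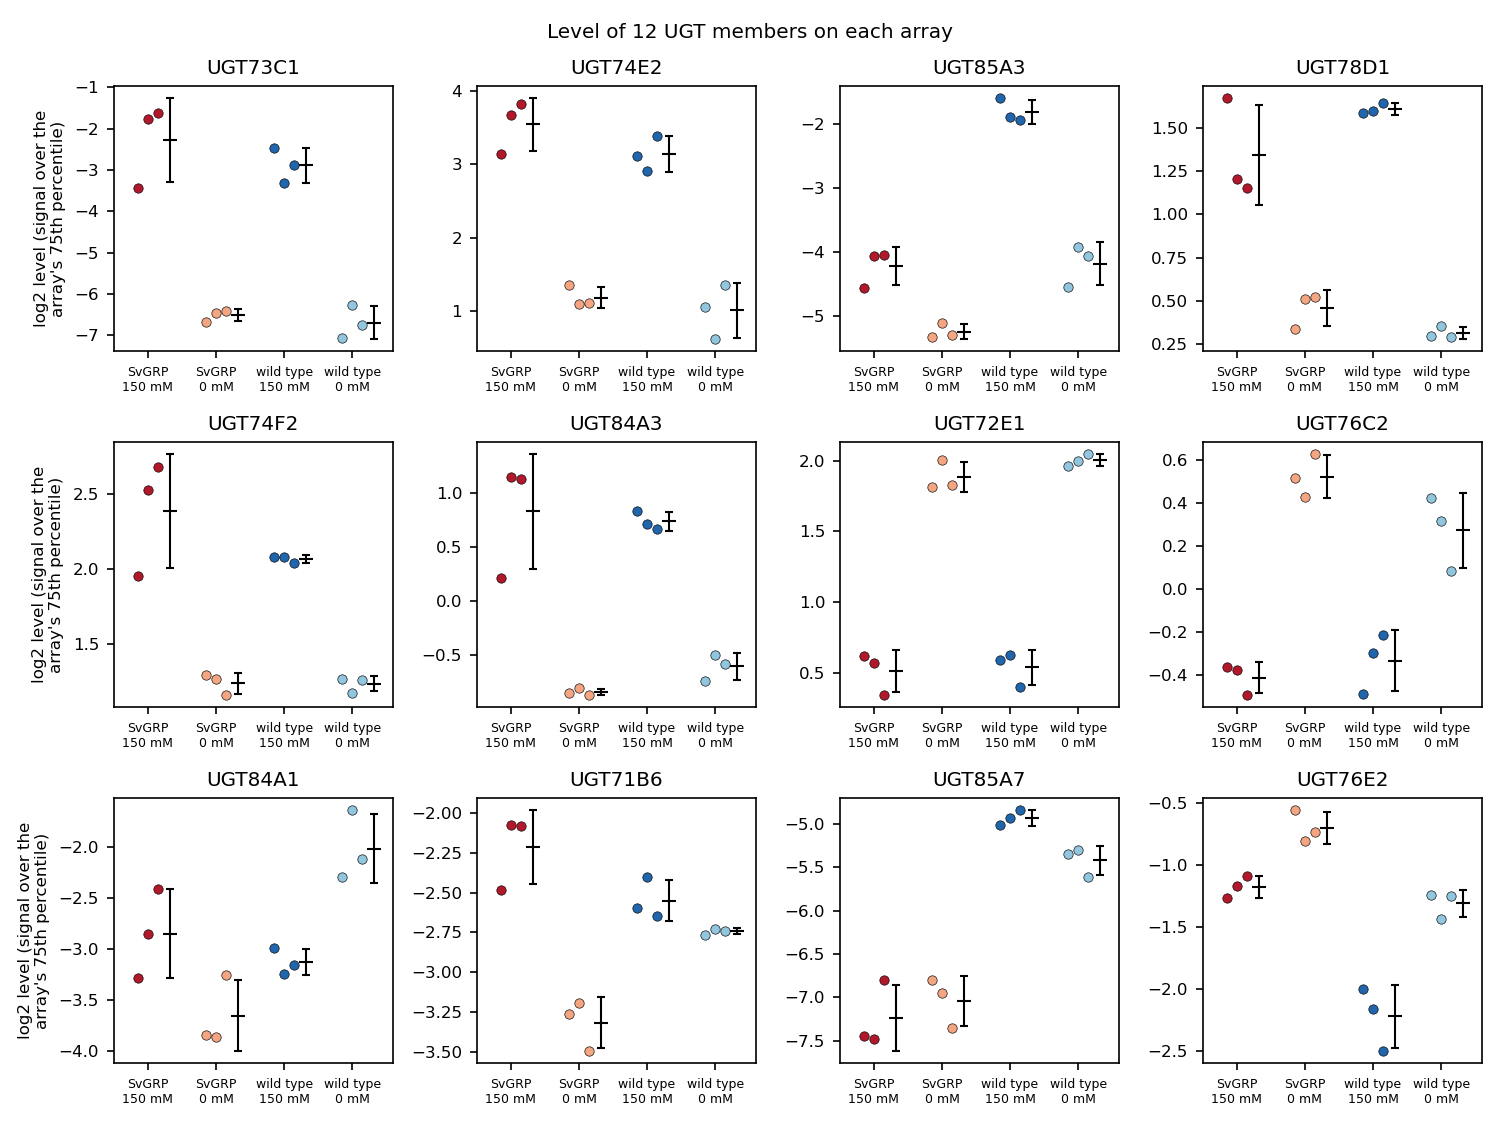
Log2 level of 12 UGT members on each array (points, replicates 1 to 3 from left to right) in the 4 groups, with the group mean and SD as bars; each panel has its own vertical axis. UGT73C1, UGT74E2, UGT78D1 and UGT74F2 are higher on all 150 mM arrays of a genotype than on its 0 mM arrays, UGT72E1 and UGT76C2 are lower, and UGT84A1 moves in opposite ways in SvGRP and wild type.

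Among 8 tested UGTs known to be induced by stress or oxidants, 3 rose and 1 fell in each genotype. These 4 calls among 8 were a smaller share than the 68.8% of all features called in SvGRP and the 63.2% in wild type. UGT74E2 and UGT75B1 are given above, and UGT85A5, reported to be induced by salt, rose by 0.68 ± 0.10 in SvGRP (limma adjusted p = 0.00022) and by 0.31 ± 0.10 in wild type (limma adjusted p = 0.024). The wild-type call was lost with scaling to the array's median (0.25, adjusted p = 0.051), in the slide-blocked fit (0.36, adjusted p = 0.098) and without any of 4 wild-type arrays, replicates 1 and 2 of either NaCl level (adjusted p up to 0.089). UGT73B1 fell in both, by 0.75 ± 0.07 in SvGRP (limma adjusted p = 1.2e-05) and by 0.79 ± 0.07 in wild type (limma adjusted p = 1.5e-05). The flavonol and defence-related UGT73B2, UGT73B3, UGT73B4 and UGT73B5 did not pass in either genotype by their brightest probes. The values of those probes lay between -0.02 and 0.17 in SvGRP and between 0.07 and 0.31 in wild type. The second probe of UGT73B5 rose, by 0.47 in SvGRP and 0.56 in wild type (limma adjusted p = 0.00567 and 0.00224), and that of UGT73B4 rose by 0.56 in wild type (limma adjusted p = 0.00591) and measured 0.24 in SvGRP (limma adjusted p = 0.159). The sterol glucosyltransferase UGT80B1 changed by 0.17 ± 0.05 in SvGRP (limma adjusted p = 0.01) and by -0.00 ± 0.05 in wild type.

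Members placed in no role group changed with salt as well. UGT85A3 rose in both genotypes, with levels of -4.55, -4.05 and -4.04 in SvGRP on 150 mM and -5.33, -5.11 and -5.29 in SvGRP on 0 mM, and of -1.59, -1.88 and -1.93 in wild type on 150 mM and -4.55, -3.92 and -4.05 in wild type on 0 mM. UGT73C7, reported to glucosylate p-coumarate and ferulate, rose by 2.25 ± 0.39 on the log2 scale in SvGRP (limma adjusted p = 0.00052) and by 1.67 ± 0.39 in wild type (limma adjusted p = 0.0039; slide-blocked adjusted p = 0.052). UGT89B1 had levels of 0.08, 0.49 and 0.75 in SvGRP on 150 mM and -1.06, -0.98 and -1.19 in SvGRP on 0 mM, and of 0.27, 0.21 and 0.23 in wild type on 150 mM and -0.98, -1.07 and -0.84 in wild type on 0 mM, with no overlap. It rose by 1.52 ± 0.14 in SvGRP (limma adjusted p = 9.5e-06) and by 1.20 ± 0.14 in wild type (limma adjusted p = 6.2e-05), and its second probe rose by 1.70 and 1.39. UGT71B1 rose by 1.72 ± 0.13 and 1.09 ± 0.13. UGT72B3 fell by 0.45 ± 0.07 and 0.65 ± 0.07, with both calls lost under E1A scaling (adjusted p = 0.094 and 0.083). UGT71C1 fell by 1.22 ± 0.15 in SvGRP (limma adjusted p = 6.0e-05) and measured -0.32 ± 0.15 in wild type (limma adjusted p = 0.087). The 3 probes of UGT85A4 disagreed in wild type, where they changed by 0.32, 0.30 and -0.40 and each passed, and in SvGRP they measured 0.18, 0.14 and -0.14, with none called (limma adjusted p = 0.129 to 0.296). The probe that fell in wild type was named by gene symbol alone, and the others by accession.

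Enzymes that supply UDP-sugars and partners in detoxification also split. Of 25 tested genes for UDP-sugar supply, 10 rose and 5 fell in SvGRP and 13 rose and 4 fell in wild type. The called share was 60.0% in SvGRP and 68.0% in wild type, near the 68.8% and 63.2% of all features. The sucrose synthases SUS3 and SUS1, which release UDP-glucose, rose by 3.01 and 2.07 on the log2 scale in SvGRP and by 2.45 and 1.17 in wild type, and the epimerase UGE5 by 1.45 and 1.13. Its relatives UGE1 and UGE3 changed by -1.18 and -1.01 in SvGRP, and by -0.99 and -1.13 in wild type. Among 27 tested detoxification partners, 13 rose and 9 fell in SvGRP and 14 rose and 7 fell in wild type. That is 81.5% called in SvGRP and 77.8% in wild type, against the same shares of all features. CYP81D8, a cytochrome P450 of chemical stress, rose by 5.27 in SvGRP and 5.18 in wild type, and the glutathione transferase GSTU4 by 3.08 and 2.48. CYP710A1, a sterol desaturase, changed by -1.48 and -1.21, and CYP81D11 by -1.14 and -0.83.

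Without salt, SvGRP differed from wild type in 16 members, 5 higher and 11 lower, out of 50. Of all features 21.2% passed, 10.4% higher and 10.8% lower. At 2-fold or more 4 members were lower and 0 higher, where 1.74% of all features were lower and 1.95% higher. In the slide-blocked fit by limma 0 of the 16 calls held, although all kept their direction; 8 members had an unadjusted p under 0.05, and 0.911% of all features were called. The median of the members was 0.00, against 0.03 over all features. E1A scaling made the split 20 higher and 4 lower, with the median of all features at 0.39, and scaling to the median gave 3 higher and 12 lower. By role, 2 of the 16 hormone-related members were higher and 2 lower, 2 of the 8 stress-induced members higher and 1 lower, and 3 of the 7 phenylpropanoid UGTs, 1 of the 3 flavonoid UGTs and the sterol UGT lower, while 0 of the 4 salicylate UGTs passed. Of the shoot markers 3 of 5 were lower in SvGRP on 0 mM (by 0.25 to 0.32 on the log2 scale) and 0 higher, of the root markers 1 of 5 was higher (SCR, 0.24), and of the seed markers 2 of 3 were higher on each medium; their part in the differences of the UGT members was not tested.

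UGT85A7 was lower in SvGRP on both media. Its SvGRP levels lay close to the dim limit, so the size of the difference is uncertain. On 0 mM its log2 level was -6.80, -6.95 and -7.36 in SvGRP, against -5.35, -5.30 and -5.61 in wild type, and on 150 mM it was -7.45, -7.48 and -6.80 in SvGRP, against -5.01, -4.93 and -4.84 in wild type, with no overlap. The log2 fold change was -1.62 ± 0.19 on 0 mM (limma adjusted p = 0.00072; slide-blocked -1.59, adjusted p = 0.088) and -2.32 ± 0.19 on 150 mM (limma adjusted p = 7.2e-05; slide-blocked -1.88, adjusted p = 0.054). UGT84A1 had -3.85, -3.87 and -3.25 in SvGRP on 0 mM, against -2.29, -1.63 and -2.11 in wild type on 0 mM, a log2 fold change of -1.64 ± 0.25 (limma adjusted p = 0.0024; slide-blocked -1.64, adjusted p = 0.15). UGT85A3 was at -5.33, -5.11 and -5.29 in SvGRP, against -4.55, -3.92 and -4.05 in wild type, and UGT73C6 was at least 2.21-fold lower in SvGRP (limma adjusted p = 0.0044 and 0.0061). UGT72E3 averaged -0.13 ± 0.07 in SvGRP and 0.60 ± 0.21 in wild type (log2 fold change -0.72 ± 0.21, limma adjusted p = 0.034), a call that ended without any of 5 arrays of these groups (all but replicate 1 of wild type; adjusted p up to 0.098) and with E1A scaling. UGT84A2, UGT71B1, UGT71B6, UGT85A5 and UGT85A4 were lower by 0.37 to 0.64 on the log2 scale with calls that E1A scaling ended, and UGT80B1 by 0.19, a value that scaling turned to 0.17. On the higher side UGT76E2 had -0.56, -0.81 and -0.74 in SvGRP, against -1.24, -1.43 and -1.25 in wild type (log2 fold change 0.61 ± 0.12, limma adjusted p = 0.0085; slide-blocked 0.96, adjusted p = 0.093). UGT73B2, UGT88A1, UGT76C1 and UGT73B3 were higher by 0.41, 0.31, 0.16 and 0.16, and the calls for the last 3 ended without any of 6 or more arrays. Among the 15 members with several probes, 6 of those called on 0 mM had another probe that did not pass. They were UGT71B1, UGT72E3, UGT80B1, UGT85A5, UGT85A4, with that probe at -0.07, and UGT88A1, with others at -0.38 and -0.12. The second probe of UGT73B4 (0.48) and one of UGT74D1 (0.34) passed as higher where the brightest did not.

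On 150 mM NaCl, SvGRP differed from wild type in 19 members, 8 higher and 11 lower, or 38.0%. Of all features 28.9% passed, 10.2% higher and 18.7% lower. At 2-fold or more 1 member was higher and 6 were lower, where 0.87% of all features were higher and 3.64% lower. In the slide-blocked fit the calls of UGT85A3 and UGT76E2 held and the other 17 did not, with 0.892% of all features called. Quantile normalization gave 9 higher and 8 lower, E1A scaling 8 and 7, and the array's median as the scale 10 and 10. By role, 4 of the 16 hormone-related members were higher and 4 lower, 2 of the 7 phenylpropanoid UGTs were lower, and 1 of the 8 stress-induced members was higher. Of 5 root markers, 2 were lower in SvGRP on 150 mM than in wild type on 150 mM, both of root hairs. SHV2 had log2 levels of -3.48, -4.61 and -3.03 in SvGRP, against -1.42, -1.01 and -1.23 in wild type, and EXPA7 had -3.63, -4.83 and -3.01, against -1.28, -1.08 and -1.19. Their part in the differences of the UGT members was not tested.

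UGT85A3 showed the largest difference of any member between the genotypes. Its levels of -4.55, -4.05 and -4.04 in SvGRP lay below those of -1.59, -1.88 and -1.93 in wild type, a log2 fold change of -2.41 ± 0.18 (limma adjusted p = 4.4e-05; slide-blocked -2.24, adjusted p = 0.039). UGT76E2 had -1.26, -1.17 and -1.09 in SvGRP, against -2.0, -2.16 and -2.5 in wild type, and was higher by 1.04 ± 0.12 (limma adjusted p = 0.00042; slide-blocked 1.21, adjusted p = 0.049). UGT85A1 was lower by 1.06 ± 0.17 on the log2 scale (limma adjusted p = 0.0022; slide-blocked -0.89, adjusted p = 0.26). Of the monolignol UGTs, UGT72E2 and UGT72E3 were lower too. UGT72E1 did not pass, with means of 0.51 in SvGRP and 0.54 in wild type. UGT72E3 had -0.53, -1.25 and -0.30 in SvGRP, against 0.38, 0.54 and 0.43 in wild type, and UGT72E2 had -1.57, -2.26 and -1.23, against -0.70, -0.64 and -0.79. The log2 fold changes were -1.14 ± 0.21 (limma adjusted p = 0.0034; slide-blocked adjusted p = 0.28) and -0.98 ± 0.24 (limma adjusted p = 0.014; slide-blocked adjusted p = 0.5). On 150 mM replicate 2 of SvGRP was the lowest of its group for UGT72E2, UGT72E3, SHV2 and EXPA7 alike. UGT71C1 averaged -1.12 ± 0.32 in SvGRP and -0.07 ± 0.02 in wild type (limma adjusted p = 0.0011; slide-blocked adjusted p = 0.24). The other 4 called lower, UGT85A4, UGT75B2, UGT71D1 and UGT76E12 (by its brighter probe), lay at -0.78, -0.50, -0.39 and -0.33, and E1A scaling ended the last 3 calls. Leaving out any of 4 arrays ended the call of UGT75B2 (adjusted p up to 0.088), and leaving out replicate 2 of either 150 mM group that of UGT76E12 (adjusted p up to 0.053). One probe of UGT85A4 measured 0.19 (limma adjusted p = 0.107) where its other 2 were lower, and the second probe of UGT76E12 measured 1.63 (limma adjusted p = 0.256).

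UGT76E11 was higher in SvGRP on 150 mM, at -1.03, -0.32 and -0.21, against -1.18, -1.35 and -1.34 in wild type (log2 fold change 0.77 ± 0.19, limma adjusted p = 0.014), a call that ended without replicate 2 of SvGRP on 150 mM (0.67, adjusted p = 0.051). UGT76E1 measured -1.08 ± 0.36 (limma adjusted p = 0.046), and 8 of the 12 arrays each ended its call when left out (adjusted p up to 0.13), as did every other scaling. UGT72B3, UGT76C1, UGT88A1, UGT74D1, UGT73B2 and UGT71C4 were higher by 0.19 to 0.42. UGT88A1 and UGT74D1 each had a probe below 0 that was not called (-0.17 and -0.12). Of the 6, UGT88A1 and UGT71C4 lost their calls without any 1 of 7 arrays and UGT73B2 without any of 5. UGT73C1, at -3.44, -1.76 and -1.61 in SvGRP and -2.46, -3.31 and -2.89 in wild type, did not pass (log2 fold change 0.62 ± 0.44, limma adjusted p = 0.31), and without replicate 1 of SvGRP on 150 mM it did (1.20, adjusted p = 0.011). With all arrays 0 of the 4 salicylate UGTs (-0.10 to 0.32) and 0 of the 3 flavonoid UGTs (-0.32 to 0.08) passed limma's test on 150 mM. Without that same array UGT74F2 passed as higher in SvGRP (0.54, adjusted p = 0.00075) and UGT78D1 as lower (-0.43, adjusted p = 0.0017).

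**Figure D4:**
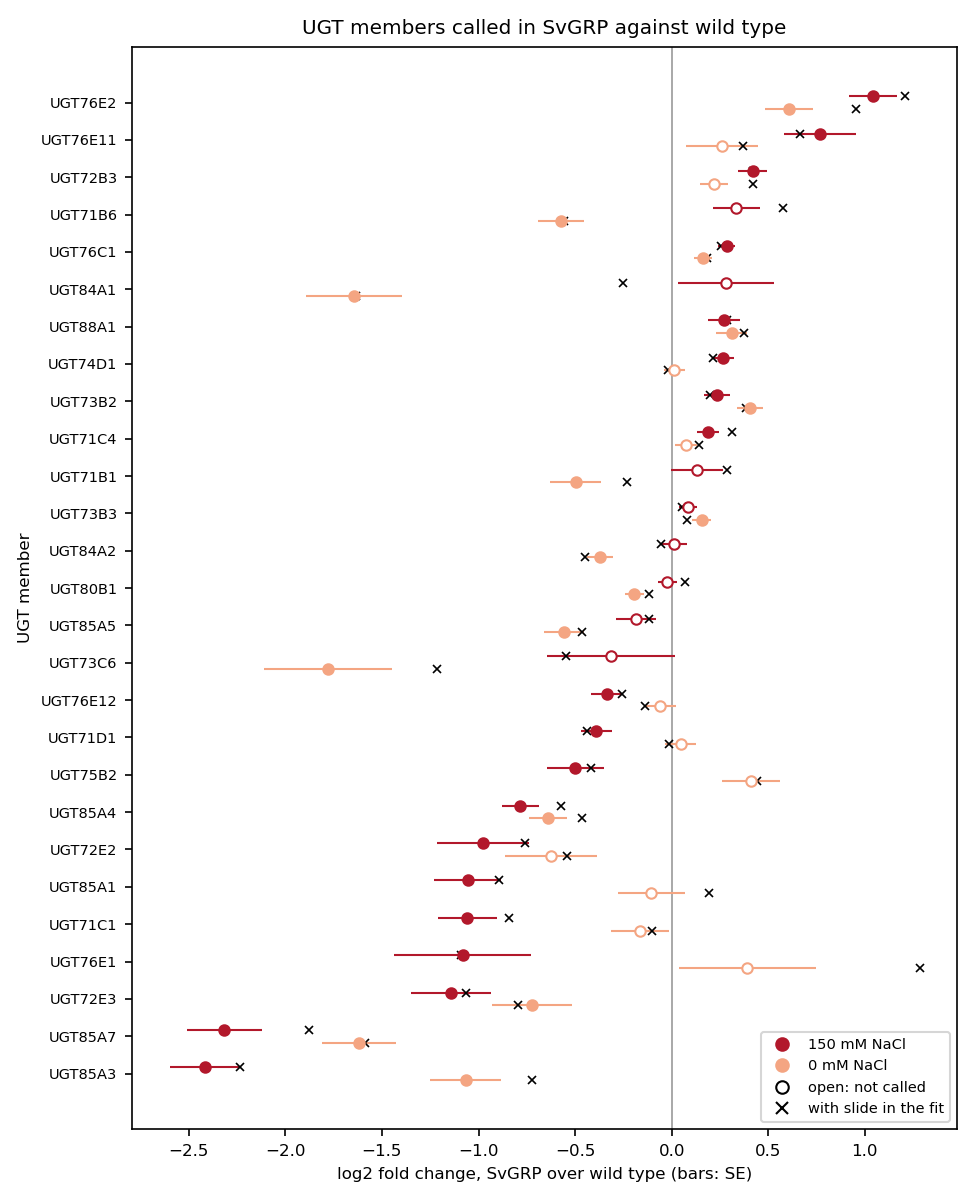
Log2 fold change (points, with SE bars) of SvGRP over wild type on 150 mM and on 0 mM NaCl for the 27 members that passed the test on at least 1 medium, with open points where the test was not passed and crosses for the slide-blocked value. UGT85A3 and UGT85A7 lie furthest to the left on 150 mM (-2.41 and -2.32) and UGT76E2 furthest to the right (1.04); the crosses stay on the same side of 0 as the filled points.

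The salt response itself, measured as the log2 change in SvGRP minus that in wild type, differed for 8 members, 3 positive and 5 negative, or 16.0%. Of all features 8.96% passed, 2.52% positive and 6.45% negative. At 2-fold or more UGT84A1 was positive and UGT85A3 negative, where 0.735% of all features were positive and 2.55% negative. In the slide-blocked fit by limma 0 of the 8 held; 8 members had an unadjusted p under 0.05, and 0.515% of all features were called. Without replicate 1 of SvGRP on 150 mM 15 members were called, 9 positive and 6 negative. Under E1A scaling 1 was positive and 8 negative, with quantile normalization 4 and 4, and with the median as the scale 4 and 3. UGT84A1 had the largest difference, 1.93 ± 0.35 (limma adjusted p = 0.014). It lay at -3.29, -2.85 and -2.40 in SvGRP on 150 mM and -3.85, -3.87 and -3.25 in SvGRP on 0 mM, where it rose by 0.81 on the log2 scale (limma adjusted p = 0.015), and at -2.99, -3.25 and -3.15 in wild type on 150 mM and -2.29, -1.63 and -2.11 in wild type on 0 mM, where it fell by 1.12 (limma adjusted p = 0.0031). The SvGRP groups overlapped, and the rise there lost its call within slide 3 (0.41, adjusted p = 0.33) and without any of 3 SvGRP arrays, replicates 1 and 2 on 0 mM and replicate 3 on 150 mM (adjusted p up to 0.059). UGT71B6 rose more in SvGRP, by 0.91 ± 0.17 (limma adjusted p = 0.015; with E1A scaling 0.71, adjusted p = 0.08). Its levels on 0 mM were -3.26, -3.19 and -3.50 in SvGRP, against -2.77, -2.73 and -2.74 in wild type. UGT85A3 rose less in SvGRP, by 1.35 ± 0.26 (limma adjusted p = 0.017). These 3 calls held whichever array was left out.

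The other 5 calls each ended without 6 to 11 of the 12 arrays taken singly. UGT84A2 measured 0.38 ± 0.10, UGT85A1 -0.95 ± 0.25, UGT75B2 -0.91 ± 0.21, UGT71C1 -0.89 ± 0.21 and UGT71D1 -0.44 ± 0.11, with limma adjusted p of 0.03 to 0.044 and up to 0.1 with an array left out. For UGT84A2 the gap was on 0 mM, where SvGRP had -0.11, -0.06 and -0.04, against 0.20, 0.41 and 0.30 in wild type, while on 150 mM SvGRP had 0.50, 0.36 and 0.57, against 0.42, 0.48 and 0.49 in wild type. For UGT71C1 the gap was on 150 mM. SHV2 and EXPA7 also had negative interactions, of -2.89 and -2.62, and their part in those of the UGT members was not tested.

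Many UGT genes stand side by side in the genome, so neighbours were compared. By the order of coding genes in the RefSeq table, 37 of the 57 members fell into 15 clusters of neighbours no more than 2 places apart. The cluster of UGT84B2 and UGT84B1 had 0 tested genes. Those of UGT73C1 with UGT73C2 and of UGT78D3 with UGT78D2 had 1 each. None of these could be called both ways. How often other neighbouring genes are called both ways was not tested. The cluster of UGT85A7, UGT85A2, UGT85A5, UGT85A3 and UGT85A1 on chromosome 1 was called one way within each comparison. With salt, 2 of its 5 genes rose and 0 fell in SvGRP and 4 rose and 0 fell in wild type, where the call of UGT85A7 (0.49, limma adjusted p = 0.047) ended without any of 7 arrays. In SvGRP against wild type 3 were lower and 0 higher on each medium, where 18.7% of all features were lower on 150 mM and 10.8% on 0 mM. The 3 were UGT85A7, UGT85A3 and UGT85A1 on 150 mM and UGT85A7, UGT85A5 and UGT85A3 on 0 mM. Only the call of UGT85A3 on 150 mM held in the slide-blocked fit. UGT85A2 passed in none of these comparisons (-0.06 and 0.16 with salt in SvGRP and wild type). In the cluster of UGT71D1, UGT71C2 and UGT71C1 on chromosome 2, all 3 fell with salt in SvGRP and 2 of 3 in wild type, and the calls of UGT71C2 and UGT71D1 in wild type were lost under E1A scaling, which turned both values to positive. The UGT73B3, UGT73B2 and UGT73B1 cluster on chromosome 4 held the gene that fell with salt and 2 that passed in neither genotype.

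Neighbours were called in opposite directions in 4 clusters with salt in SvGRP and in 3 with salt in wild type, as well as in 2 in SvGRP against wild type on 150 mM and in 0 on 0 mM. One of the clusters in each of the first 3 counts is that of UGT76E12 and UGT76E11, which depends on the brighter probe of UGT76E12; without it the counts are 3, 2 and 1. UGT84A3 rose and UGT84A4 fell in both genotypes while UGT84A1 next to them differed between the genotypes. UGT71B6 rose and UGT71B8 fell in SvGRP, and UGT76C1 rose and UGT76C2 fell there. For UGT76E1 and UGT76E2 on chromosome 5 the calls were opposite with salt in wild type (1.1 and -0.91) and in SvGRP against wild type on 150 mM (-1.08 and 1.04). This pair is the 1 cluster left in the last comparison. The call of UGT76E1 with salt in wild type was lost with quantile normalization. Its call on 150 mM was lost with every other scaling and without any 1 of 8 arrays. Close copies can bind each other's probes, and whether they did could not be examined here because the probe sequences were not used.

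By sequence group, the UGT71 and UGT73 members were the most numerous, with 9 tested each. Of all features, 31.0% rose and 37.8% fell with salt in SvGRP, and 33.1% rose and 30.2% fell in wild type. In UGT71, 2 rose and 7 fell with salt in SvGRP and 1 rose and 5 fell in wild type. E1A scaling ended the calls of all 5 that fell in wild type, and turned the values of UGT71C4, UGT71D1 and UGT71C2 there to positive. In SvGRP it ended the calls of UGT71C5, UGT71C4, UGT71C3 and UGT71C2. In UGT73, 3 rose and 1 fell in each genotype, with the 3 being the UGT73C genes. All 4 tested UGT72 members had negative log2 fold changes with salt in both genotypes, of -1.37 to -0.43 in SvGRP, where 3 passed, and -1.47 to -0.08 in wild type, where 2 passed; E1A scaling turned the wild-type values of UGT72E2 and UGT72E3 to 0.35 and 0.28, neither called. Of the 6 UGT85A members 4 were called lower in SvGRP on 150 mM and 4 on 0 mM, where 18.7% and 10.8% of all features were lower. The medians were -0.92 and -0.60. UGT85A7, UGT85A3 and UGT85A4 (by 2 of its 3 probes) were called on both media, UGT85A1 on 150 mM alone and UGT85A5 on 0 mM alone. In the slide-blocked fit only the call of UGT85A3 on 150 mM held. E1A scaling ended the calls of UGT85A5 and UGT85A4 on 0 mM. The spread between replicates was wider in one group than in the others. The median SD over the members was 0.212 in SvGRP on 150 mM, 0.082 in SvGRP on 0 mM, 0.085 in wild type on 150 mM and 0.122 in wild type on 0 mM, and the medians over all features were 0.130, 0.064, 0.101 and 0.089 in the same order.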

How the data were processed

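Total RNA of whole seedlings was labelled with Cy3 and hybridised to 12 one-colour Agilent arrays. The deposited scanner files hold 1 processed signal per probe (an intensity), per the file headers, and the submitters' processing notes name Agilent Feature Extraction; background and flag settings are not given in the sources used here. Per the values, the deposited series table holds log2 values equal to those signals over the array's 75th percentile with each probe's median subtracted, to within 0.000389. Here log2 of the processed signal was taken minus each array's 75th percentile over non-control probes. A probe was kept where, in at least 1 group, its signal was over the 20th percentile of all 3 arrays, which left 26794 features, 20917 of them named genes. The brightest probe stood for a gene. A mean per group was fitted over all 12 arrays with limma 3.58.1 in R 4.3.3 (8 residual and 1.74 prior degrees of freedom), and p-values were Benjamini-Hochberg adjusted over all features, with a threshold of 0.05. The fit with slide as a fixed block leaves 6 residual degrees of freedom. Where all 3 arrays of a group lay below the 20th percentile, a bound ("at least N-fold") is given: the other group's mean against the mean of, per array, the higher of the lowest signal passing that percentile and the probe's own.

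The median signal was 676 to 1013 per array and the 20th percentile 14.1 to 27.6; the number of arrays limits the precision. Members named are those of the role groups and, for each comparison, the 5 largest called rises and falls without overlap; of each pathway list up to 3 called genes per direction could be named. The members and lists were chosen with earlier results of these data known. Names came from the array annotation and the RefSeq gene table. Where a probe's accession was not in that table, its locus or symbol was used. Start positions in the RefSeq table set the gene order for the neighbour clusters, and no sequences were used. Same-numbered replicates did not deviate together (correlations of -0.183 to 0.215), so the numbers do not pair the arrays. The fit was tested on simulated data. Other normalizations, filters, blocks and left-out arrays were tried as alternatives.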

Additional observations from a re-analysis of the deposited data

Results flagged for a closer look

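A set of 8 members is listed because the salt response differed between the genotypes by limma's interaction test, given as the log2 change in SvGRP minus that in wild type. UGT84A1 (1.93), UGT71B6 (0.91) and UGT84A2 (0.38) had the more positive response in SvGRP. UGT85A3 (-1.35), UGT85A1 (-0.95), UGT75B2 (-0.91), UGT71C1 (-0.89) and UGT71D1 (-0.44) had the more negative one. In the slide-blocked limma fit 0 of the 8 passed, with 8 members at an unadjusted p under 0.05. UGT84A1, UGT71B6 and UGT85A3 stayed past the threshold of the fit without slide whichever single array was left out, and the other 5 did not.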

How the results depend on the processing

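The count of called members stayed within 1.5 times its value under quantile normalization, with the array's median or the E1A probes as the scale, the authors' series table, the filter for brightness on all arrays, the mean over probes, a trended robust variance and a floor at the 20th percentile, in each of the 5 comparisons. Requiring 2-fold gave 14 members for salt in SvGRP, 14 for salt in wild type, 4 for SvGRP against wild type on 0 mM, 7 on 150 mM and 2 for the interaction. With slide as a fixed block 0 members were called on 0 mM, 2 on 150 mM and 0 for the interaction by limma, against 8, 12 and 8 at an unadjusted p under 0.05. With only the groups compared in the fit, 9 were called on 150 mM. The interaction gave 5 calls without the filter on dim probes and 21 with slide as a random block, whose estimated correlation was -0.165. The numbers do not pair the arrays; a replicate block gave 4 interaction calls and changed no other count by over 1.5 times. Leaving out each array gave 31 to 37 calls for salt in SvGRP, 29 to 39 for salt in wild type, 10 to 18 on 0 mM, 13 to 22 on 150 mM and 3 to 15 for the interaction, where 15 came without replicate 1 of SvGRP on 150 mM. Calls that held without any 1 array numbered 31 of 35, 28 of 34, 10 of 16, 12 of 19 and 3 of 8 in the same order. E1A scaling, over 8 of 10 probes, moved the members' median to 0.38 and 0.61 with salt in SvGRP and wild type, 0.36 on 0 mM, 0.16 on 150 mM and -0.18 for the interaction; the median over all features became 0.16, 0.46, 0.39, 0.14 and -0.24. Leaving out single arrays moved the members' median to between 0.05 and 0.17 with salt in SvGRP, 0.15 and 0.21 in wild type, -0.04 and 0.01 on 0 mM, -0.04 and 0.03 on 150 mM, and -0.03 and 0.07 for the interaction. Where a value called in either setting changed sign, E1A scaling gave 0.062 and 0.147 for UGT71C4 with salt in SvGRP and wild type, 0.21 for UGT73B2 with salt in SvGRP, and 0.425, 0.111, 0.131, 0.045 and 0.036 for UGT80B1, UGT71D1, UGT71C2, UGT74D1 and UGT84A4 with salt in wild type. On 0 mM it gave 0.17 for UGT80B1 and 0.30 for UGT76E12. The mean over probes gave 0.156 and 0.055 for UGT74D1 with salt in SvGRP and wild type, and 1.65, 1.56 and 0.65 for UGT76E12 with salt in SvGRP, with salt in wild type and in SvGRP against wild type on 150 mM; the cause was not tested. Normexp background correction was not run, since the columns it needs are not held here.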
